A study of Mus musculus with 8 samples.

Results

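The homeobox transcription factor genes Lhx6, Lhx8, Pitx1, Isl1, Gsc, Prrx1 and Prrx2 were examined in RNA from mouse palatal shelves, the outgrowths of the maxillary processes that meet to form the secondary palate. They were chosen by name, as factors of oral and maxillary mesenchyme, and their mouse Ensembl identifiers were looked up in a table of 19083 genes. All 7 were found, and all 7 passed the filter on low values. The libraries came from embryos at embryonic day 13.5 on a C57BL/6 background. The 4 embryos of the null group carried Pax9-/-, 2 wild-type embryos carried Pax9+/+ and 2 heterozygotes carried Pax9+/-. Wild types and heterozygotes together are called controls (n = 4). The treatment label of all 8 is not applicable, and each palate was lysed on its own. The labels do not state how the Pax9 allele was made or which exons it lacks. Litters are not given either, so the tests measure no more than the spread among these 8 samples.

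Homeobox genes encode transcription factors that bind DNA through a homeodomain and give parts of the embryo their identity. In the first pharyngeal arch, Fgf8 from the oral ectoderm induces Lhx6 and Lhx8 in the underlying neural crest mesenchyme, and mice without both genes have cleft palate and lack molars. The paired-related factors Prrx1 and Prrx2 act in mesenchyme of the head and limbs, and loss of Prrx1 also causes cleft palate in mice. Pitx1 acts in the mandibular arch and the hindlimb, Gsc (goosecoid) in the lower jaw, nose and ear, and Isl1 in oral epithelium and distal mandibular mesenchyme as well as in sensory and motor neurons. Pax9, the factor targeted here, is a paired-box protein of the same oral mesenchyme.

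Depth ran from 37069101 to 51210254 gene reads per library, and Pax9 itself lay between 7.19 and 10.3 FPKM in null and between 26.2 and 35.8 FPKM in controls. FPKM, the unit deposited, divides a fragment count by gene length and by library size. Levels of different genes can be set side by side only as far as that length fits the transcripts present. The annotation behind the length was not given. The summed FPKM of 8 mesenchyme markers, among them Pdgfra and Twist1, ran from 1107 to 1294 in null and from 1061 to 1250 in controls, and that of 11 oral epithelium markers from 189 to 241 in null and from 191 to 284 in controls. The order in which the samples are listed puts null 1, null 2 and both wild types in the first 4, and null 3, null 4 and both heterozygotes in the last 4. Each of these sets holds 2 null and 2 control libraries, but heterozygote against wild type cannot be told apart from last against first set. The labels do not say what the order stands for. The first number in each title, 44 or 56 and here the title number, is not explained either. Null 1, null 3, wild type 1 and heterozygote 1 carry 56.

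No jaw factor passed the threshold in null shelves. With limma on log2(FPKM + 0.5), at an adjusted p under 0.05 (Benjamini-Hochberg over all 13600 tested genes), 0 of 7 members were called, where 57 genes or 0.419% of all tested were called. By the unadjusted p, 2 of 7 members (Gsc and Lhx6) were under 0.05, against 7.15% of all tested genes. With voom on whole reads recovered from the FPKM values, 0 of 7 were called, against 65 genes or 0.478% of all tested. There, 3 members (Gsc, Lhx6 and Lhx8) had an unadjusted p under 0.05, as did 7.02% of all tested genes. Of the 7 log2 changes, 3 were above 0 and 4 below it. Their median was −0.01, as was the median over all tested genes. These values do not show that the genes were unaffected: the 95% intervals given below bound the size of a difference in each.

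Lhx8 and Prrx1 were the most abundant members, with mean levels of 81.0 and 80.0 FPKM over the 8 libraries, and their ranges overlapped. In reads, Lhx8 had 6409 to 11548 per library and Prrx1 31015 to 44375, so their order depends on the gene lengths used. Lhx8 was above Prrx1 in all 4 null libraries and in 1 of 4 controls. Lhx6 followed at 54.7 FPKM, below Prrx1 in all 8 libraries with no overlap of the ranges. Prrx2 averaged 41.3 FPKM and was below Lhx6 in 7 of 8 libraries. Pitx1 averaged 19.5 FPKM and lay below Prrx2 in each library, although the ranges over libraries overlapped. Gsc averaged 16.5 FPKM, and was below Pitx1 in 4 of 8 libraries, so these neighbours were not separated. Isl1 was the lowest at 4.68 FPKM, and its range did not reach that of Gsc.

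**Figure D1:**
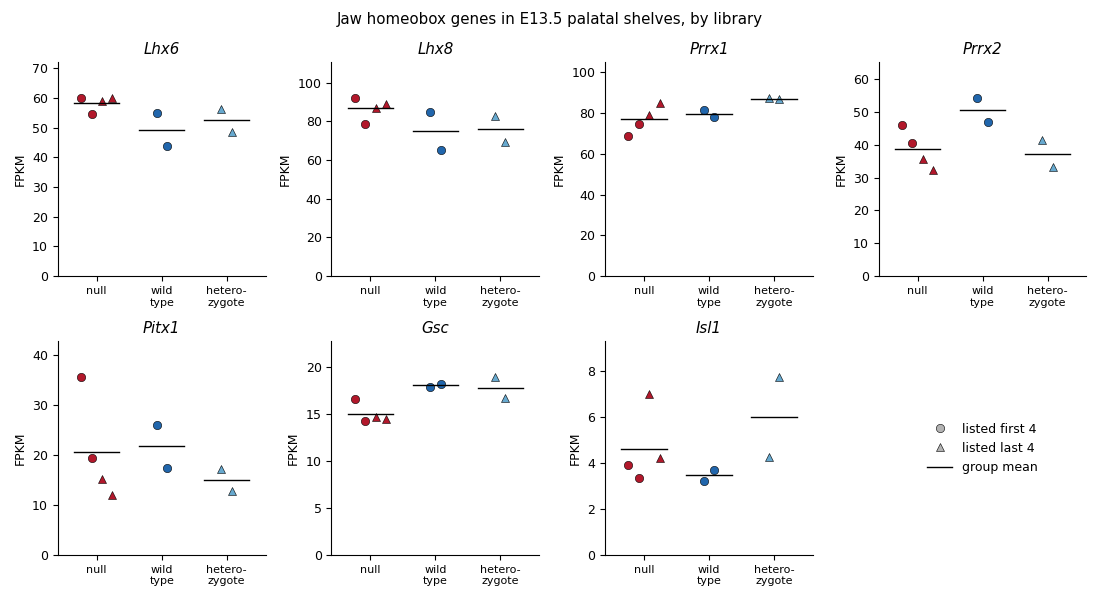
FPKM of each jaw homeobox gene (y axis) in Pax9 null, wild-type and heterozygous palatal shelves; each point is 1 library, circles and triangles mark the first 4 and last 4 listed libraries, and lines are group means. Gsc is the 1 gene in which all null libraries (14.3 to 16.6 FPKM) lie below all controls (16.7 to 19.0 FPKM).

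Lhx6 and Lhx8, which encode closely related LIM-homeodomain proteins, had similar point estimates in null shelves and kept nearly the same ratio in every library. Lhx6 lies on chromosome 2 from 36081953 to 36105408 and Lhx8 on chromosome 3 from 154306294 to 154330659, both on the minus strand in mm10. The RefSeq promoter windows of this pair (GRCm38.p6, the assembly mm10 names), each with 250 bases before and 50 after a transcription start, are shown because these genes tracked each other. The window of Gsc is shown as that of the member whose groups did not overlap. Capitals mark CACGCNTNA, a core of the sequence bound by the paired domain of Pax9 and its relatives in vitro, and TAAT, the core bound by many homeodomains, on either strand (TAAT reads ATTA on the other strand). Lhx6 also has windows at chr2:36104484-36104783 and chr2:36104011-36104310, which are not printed and hold no CACGCNTNA. Which of its starts is used in these shelves was not tested. The windows printed are chr2:36105359-36105658 for Lhx6 (its outermost start), chr3:154330511-154330810 for Lhx8 and chr12:104473187-104473486 for Gsc, all on the minus strand and printed 5′ to 3′.
Lhx6: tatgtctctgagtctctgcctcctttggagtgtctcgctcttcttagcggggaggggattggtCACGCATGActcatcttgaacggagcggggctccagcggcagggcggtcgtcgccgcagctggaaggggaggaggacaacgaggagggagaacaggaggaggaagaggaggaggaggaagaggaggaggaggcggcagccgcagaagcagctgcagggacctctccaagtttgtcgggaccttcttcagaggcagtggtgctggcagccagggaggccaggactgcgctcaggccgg
Lhx8: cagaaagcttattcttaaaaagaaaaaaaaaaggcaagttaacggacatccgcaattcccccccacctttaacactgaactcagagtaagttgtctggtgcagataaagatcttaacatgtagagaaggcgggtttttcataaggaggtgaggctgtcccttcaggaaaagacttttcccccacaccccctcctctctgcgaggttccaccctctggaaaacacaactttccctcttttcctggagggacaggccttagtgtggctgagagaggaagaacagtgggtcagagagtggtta
Gsc: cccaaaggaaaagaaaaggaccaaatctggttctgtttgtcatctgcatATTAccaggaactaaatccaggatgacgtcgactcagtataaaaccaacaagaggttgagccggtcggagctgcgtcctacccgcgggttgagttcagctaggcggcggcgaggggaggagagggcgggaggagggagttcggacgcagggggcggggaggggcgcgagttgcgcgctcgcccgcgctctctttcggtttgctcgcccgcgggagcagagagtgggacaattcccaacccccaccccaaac

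Of the 7 members, 6 were matched to 8 such windows. The letters CACGCNTNA occurred in 1 of them, the outermost Lhx6 window, beginning at position −187 from the start, and in 1.27% of 32544 mouse promoter windows of the same length. TAAT occurred in 57.9% of all windows and had 4 matches in the Prrx1 window, 3 in the third Lhx6 window, 2 in the Isl1 window and 1 in the Gsc window. In the Prrx1 window 2 of the TAAT matches overlap each other on opposite strands. The motifs were chosen with the promoter sequences in view, so the share over all windows is no test of the match in Lhx6. A match describes the letters of the window, and says nothing of binding in these shelves.

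Lhx6 had 60.0, 54.6, 58.9 and 60.0 FPKM in nulls 1, 2, 3 and 4, against 54.96 and 43.7 FPKM in wild types and 56.3 and 48.7 FPKM in heterozygotes. The null libraries were the tighter group, and null 2 lay below wild type 1 and heterozygote 1, so the groups overlapped. The mean was 58.4 ± 2.56 FPKM in null and 50.9 ± 5.82 in controls (SD, n = 4 each). The log2 difference was 0.20 (SE 0.08), with an interval from 0.02 to 0.38 (limma, adjusted p = 0.604). Between 8116 and 14686 reads fell on the gene in each library, and 2.16% of its exon bases overlap Gm27953 on the same strand.

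Lhx8 had 92.0, 78.7, 86.8 and 88.9 FPKM in nulls 1, 2, 3 and 4, against 84.7 and 65.4 FPKM in wild types and 82.5 and 69.1 FPKM in heterozygotes. As with Lhx6, null 2 was the lowest null library and wild type 2 the lowest of all. The mean was 86.6 ± 5.67 FPKM in null and 75.4 ± 9.61 in controls (SD, n = 4 each), a log2 difference of 0.20 (SE 0.09), with an interval from −0.002 to 0.41 (limma, adjusted p = 0.706). Among the libraries of title number 44 the log2 changes were 0.31 for Lhx6 and 0.31 for Lhx8, and among those of title number 56 they were 0.09 and 0.10 (n = 2 against 2). Within the first and last listed set they were 0.22 and 0.18 for Lhx6 and 0.19 and 0.22 for Lhx8. Both genes were thus above 0 in each of these subsets, which divide the same libraries in 2 ways, and neither was called in any. Over all tested genes, 0 and 9 were called within title numbers 44 and 56. Within the first and last listed set, 2 and 3 were called.

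The ratio of Lhx8 to Lhx6 FPKM was 1.53, 1.44, 1.48 and 1.48 in nulls 1, 2, 3 and 4, against 1.54 and 1.49 in wild types and 1.47 and 1.42 in heterozygotes. It averaged 1.48 ± 0.04 in null and 1.48 ± 0.05 in controls (SD, n = 4 each), while the levels themselves spanned 1.37-fold for Lhx6 and 1.41-fold for Lhx8. Among 9304 tested genes that averaged 5 FPKM or more, Lhx6 was the gene whose log2 profile over the 8 libraries was most like that of Lhx8 (Pearson r = 0.97), and Lhx8 ranked 2 for Lhx6. The other close profiles were Mmaa and Sec61a2 for Lhx6 (r = 0.99 and 0.96) and Mmaa and Zfp217 for Lhx8 (r = 0.95 and 0.92). The likeness is a description over 8 points that share genotype, listing set and title number.

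**Figure D2:**
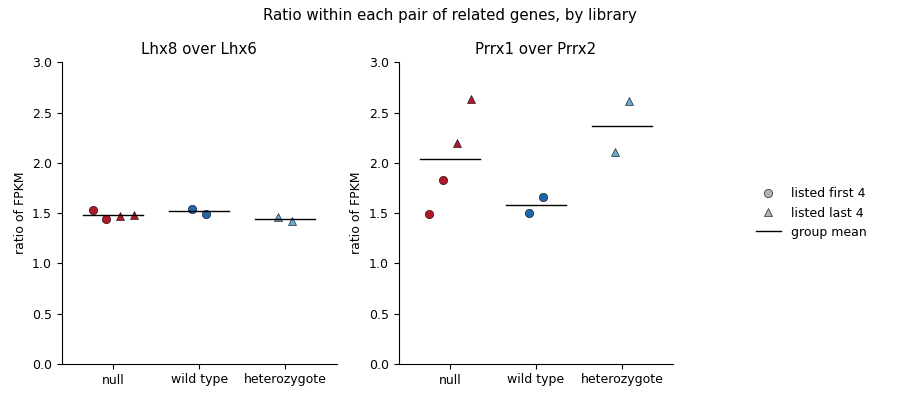
Ratio of FPKM values within each library (y axis) for Lhx8 over Lhx6 and for Prrx1 over Prrx2, in null, wild-type and heterozygous shelves; points are libraries, lines are group means. Lhx8 over Lhx6 stays between 1.42 and 1.54, whereas Prrx1 over Prrx2 runs from 1.49 to 2.64 and is higher in each of the last 4 listed libraries than in any of the first 4.

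Prrx1 and Prrx2, a pair of related genes like Lhx6 and Lhx8, did not keep a fixed ratio. Prrx1 (chromosome 1, from 163245119 to 163313710, minus strand) had 68.9, 74.5, 78.7 and 84.9 FPKM in nulls 1, 2, 3 and 4, against 81.3 and 78.1 FPKM in wild types and 87.3 and 86.8 FPKM in heterozygotes. Across all libraries the groups overlapped, since null 3 and null 4 were above wild type 2 and null 4 above both wild types. Within each listing set, both null libraries were below both controls, and the share of all tested genes with that order was not counted. The mean of 76.7 ± 6.80 FPKM in null compared with 83.3 ± 4.45 in controls (SD, n = 4 each). The log2 difference was −0.12 (SE 0.07), with an interval from −0.28 to 0.04 (limma, unadjusted p = 0.119, adjusted p = 0.848). With the listing set as a block the estimate was the same by construction, its SE 0.04, its limma unadjusted p 0.0136 and its adjusted p 0.171. Over all tested genes this block gave 176 calls, against 57 without it. The share of all tested genes at an unadjusted p under 0.05 with the block was not counted.

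Prrx2 (chromosome 2, from 30834972 to 30881251, plus strand) had 46.2, 40.7, 35.8 and 32.2 FPKM in nulls 1, 2, 3 and 4, against 54.2 and 47.0 FPKM in wild types and 41.4 and 33.1 FPKM in heterozygotes. Its levels followed the listing sets: both heterozygotes were below both wild types, and null 3 and null 4 below null 1 and null 2. The mean was 38.7 ± 6.05 FPKM in null and 43.9 ± 8.92 in controls (SD, n = 4 each), a log2 difference of −0.17 (SE 0.15), with an interval from −0.52 to 0.18 (limma, adjusted p = 0.948). With the listing set as a block the estimate was the same by construction and its limma adjusted p was 0.340.

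The first set exceeded the last by 0.35 on the log2 scale for Prrx2 among null libraries and by 0.44 among controls, which are wild types in the first set and heterozygotes in the last. For Prrx1 the same differences were −0.19 and −0.13. The ratio of Prrx1 to Prrx2 was 1.49, 1.83, 2.20 and 2.64 in nulls 1, 2, 3 and 4, against 1.50 and 1.66 in wild types and 2.11 and 2.62 in heterozygotes. It averaged 2.04 ± 0.49 in null and 1.97 ± 0.50 in controls (SD, n = 4 each), and the 4 libraries of the first set lay below the 4 of the last. The genes with the most similar profiles were Sh3gl1, Efna2 and Abtb2 for Prrx2 (r = 0.99 each), and Ccna2, 6720489N17Rik and Rbm22 for Prrx1 (r = 0.98, 0.97 and 0.97).

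Pitx1 was the most variable member. It lies on chromosome 13 from 55825051 to 55836192 on the minus strand, and 6.21% of its annotated exon bases overlap the antisense gene Gm47071, whose reads this unstranded kit cannot separate. A further overlap of 4.07% is with Gm28760 on the same strand. It had 35.7, 19.5, 15.2 and 12.1 FPKM in nulls 1, 2, 3 and 4, against 26.1 and 17.4 FPKM in wild types and 17.4 and 12.8 FPKM in heterozygotes, a 2.94-fold span. Null 1 held the highest value and null 4 the lowest, so the null group enclosed all controls. The mean was 20.6 ± 10.5 FPKM in null and 18.4 ± 5.56 in controls (SD, n = 4 each).

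The log2 difference of Pitx1 was 0.08 (SE 0.31), and its interval, from −0.62 to 0.79, was the widest of the members (limma, adjusted p = 0.999). It was −0.21 without null 1, −0.07 without heterozygote 2 and 0.29 without null 4, so that single libraries set its direction. Within the first listed set it was 0.30 and within the last −0.13. The first set exceeded the last by 0.93 on the log2 scale among null libraries and by 0.50 among controls. Skeletal muscle markers, 10 genes, summed to 274, 286, 120 and 73.4 FPKM in nulls 1, 2, 3 and 4, against 91.2 and 197 in wild types and 64.3 and 65.1 in heterozygotes. Their sum was likewise higher in the first set, among null and among control libraries. Library by library, the sum and Pitx1 did not follow one order. Null 2 had the highest sum and 19.5 FPKM of Pitx1. Wild type 1 had a sum of 91.2 and 26.1 FPKM of Pitx1, and wild type 2 a sum of 197 and 17.4 FPKM. The part of muscle in the Pitx1 values was not tested. The most similar profiles were those of Pim3, Itfg2 and Slc25a22 (r = 0.99, 0.99 and 0.98).

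Gsc was the member in which null libraries did not overlap controls, while the heterozygotes lay on either side of the wild types. It lies on chromosome 12 from 104471209 to 104473330 on the minus strand, and between 679 and 1043 reads fell on it in each library. It had 16.6, 14.3, 14.7 and 14.5 FPKM in nulls 1, 2, 3 and 4, against 17.9 and 18.2 FPKM in wild types and 19.0 and 16.7 FPKM in heterozygotes. Every null library was below every control, with null 1 and heterozygote 2 nearly touching. Null libraries lay wholly below controls in 1 of 7 members and in 3.3% of all tested genes.

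The mean Gsc level was 15.0 ± 1.08 FPKM in null and 18.0 ± 0.94 in controls (SD, n = 4 each), or 0.835 of the control mean. The log2 difference was −0.25 (SE 0.06), with an interval from −0.40 to −0.11 (limma, unadjusted p = 0.00295, adjusted p = 0.205). It was −0.23 and −0.28 within the first and last listed set, and −0.27 and −0.23 within title numbers 44 and 56. Over its 21 alternatives the change lay between −0.30 and −0.23 and the adjusted p between 0.0775 and 1.00, so the gene was called in none. The lowest of these came with the listing set as a block. Over all tested genes, these alternatives called between 0 and 176. The summed FPKM of 9 cartilage markers also lay lower in every null library, between 115 and 133 in null and between 154 and 182 in controls. Of the 6 cartilage markers tested, 0 were called higher and 2 lower, and 5 lay below 0, with a median of −0.48. The called ones were Col2a1, the main cartilage collagen, and Matn4, a matrilin of cartilage matrix, which fell by 0.40 and by 1.18 on the log2 scale (limma, adjusted p = 0.0405 and 0.0263). The part of cartilage in the Gsc values was not tested. The most similar profiles were those of Ybx1, a cold-shock domain protein that binds RNA, Gpatch4 and Umps (r = 0.97, 0.94 and 0.94).

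**Figure D3:**
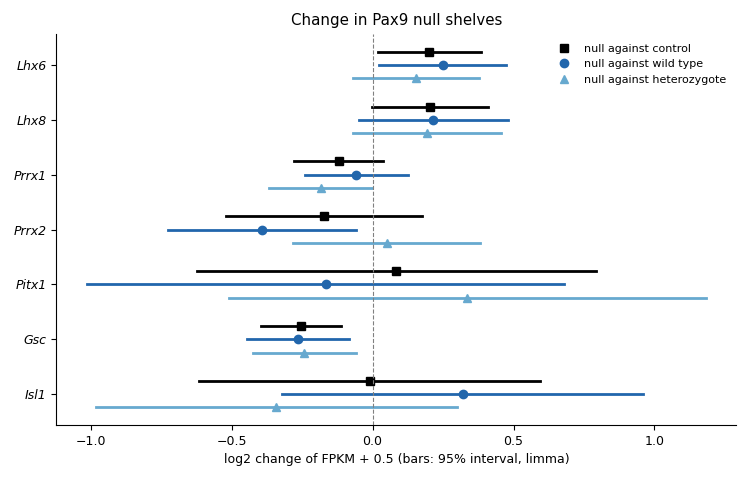
Log2 change of FPKM + 0.5 in Pax9 null shelves (x axis) for each gene (y axis), against all 4 controls, against the 2 wild types and against the 2 heterozygotes; points are limma estimates and bars their 95% intervals. The Gsc intervals lie below 0 in all 3 comparisons, although no estimate passed the threshold over all tested genes, and those of Pitx1 and Isl1 are the widest.

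Isl1 was the lowest member, and was highest in the 2 libraries with the most neuron marker RNA. It lies on chromosome 13 from 116298281 to 116309689 on the minus strand. It had 3.90, 3.35, 7.00 and 4.22 FPKM in nulls 1, 2, 3 and 4, against 3.24 and 3.71 FPKM in wild types and 4.27 and 7.74 FPKM in heterozygotes. Null 3 and heterozygote 2 stood above the other libraries, and the groups overlapped. The mean was 4.62 ± 1.63 FPKM in null and 4.74 ± 2.05 in controls (SD, n = 4 each), a log2 difference of −0.01 (SE 0.27), with an interval from −0.62 to 0.60 (limma, adjusted p = 1.00).

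The summed FPKM of 10 neuron markers, among them Tubb3, Stmn2, Prph and the sensory neuron factor Pou4f1, was 22.9, 23.0, 114 and 14.0 in nulls 1, 2, 3 and 4, against 21.02 and 66.9 in wild types and 28.5 and 122 in heterozygotes. The same libraries, null 3 and heterozygote 2, were the highest in both measures, while the other 6 did not follow one order: wild type 2 had the third highest marker sum and 3.71 FPKM of Isl1, and null 4 the lowest sum and 4.22 FPKM. No marker of the list was at 0 in all libraries, and 1 of 10, Snap25, stayed under 1 FPKM. Isl2, the closest relative of Isl1 and also a factor of sensory and motor neurons, had its highest values in these libraries too, at 3.56 FPKM in null 3 and 3.60 in heterozygote 2, against 1.31 to 2.48 FPKM in the others. Without these libraries the Isl1 log2 change was 0.031 (limma, adjusted p = 0.997; null 1, 2 and 4 against both wild types and heterozygote 1). In such bulk RNA, fewer cells of a type and less RNA per cell cannot be told apart, and the part of neurons in the Isl1 values was not tested. The profiles most like that of Isl1 were those of Mllt11, Atp6v1e1 and Stk24 (r = 0.97, 0.96 and 0.96).

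**Figure D4:**
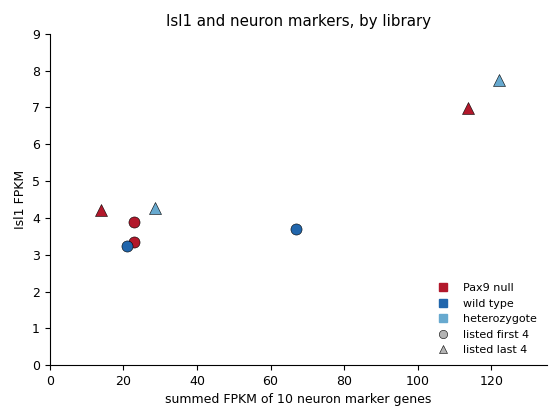
Isl1 FPKM (y axis) against the summed FPKM of 10 neuron marker genes (x axis), 1 point per library, coloured by genotype and shaped by listing set. Null 3 and heterozygote 2 are highest on both axes, at 7.00 and 7.74 Isl1 FPKM, and the other 6 libraries lie between 3.24 and 4.27.

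Against each control genotype alone, in a fit with 3 groups, no member was called either. Against wild type, 0 of 7 were called where 52 genes or 0.382% of all tested were, and 3 (Lhx6, Gsc and Prrx2) had an unadjusted p under 0.05, as did 11.6% of all tested genes. Their log2 changes were 0.25 for Lhx6, −0.26 for Gsc and −0.39 for Prrx2, with limma adjusted p values of 0.408, 0.314 and 0.381. Against heterozygotes, 0 of 7 were called where 11 genes or 0.0809% were, and 2 (Gsc and Prrx1) had an unadjusted p under 0.05, as did 6.95% of all tested. Their log2 changes were −0.24 and −0.18 (limma, adjusted p = 0.632 and 0.715). Both comparisons share the null libraries. Voom called 0 of 7 against wild type, where it called 64 genes or 0.471%, and 3 members had an unadjusted p under 0.05, as did 11.6% of all tested. Against heterozygotes voom called 0 of 7, where it called 14 genes or 0.103%, and 2 members had an unadjusted p under 0.05, as did 6.55% of all tested.

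Gsc had similar estimates in both comparisons, while those of Prrx2, Pitx1 and Isl1 were on opposite sides of 0. For Prrx2 the change was −0.39 against wild type and 0.05 against heterozygote, for Pitx1 −0.17 and 0.34, and for Isl1 0.32 and −0.34. These are the members that differed most between heterozygote and wild type, by −0.44, −0.50 and 0.66 (limma, adjusted p = 0.377, 0.502 and 0.377). In that comparison 0 of 7 members and 0 genes (0% of all tested) were called by limma and by voom. There, 1 member (Prrx2) was at an unadjusted p under 0.05 with either tool, as were 1568 genes (11.5%) with limma and 1634 (12%) with voom. Among null libraries, which share a genotype, the last set differed from the first in the same direction for each of these 3 genes: the first minus last difference was 0.35 for Prrx2, 0.93 for Pitx1 and −0.53 for Isl1.

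Relatives of the members were few or scarce in the shelves. Of 9 other LIM-homeodomain genes listed, 7 were in the table and 1, Isl2, passed the filter. It had a log2 difference of −0.24, short of the threshold (limma, adjusted p = 0.968). The next most abundant, Lmx1a, averaged 0.29 ± 0.05 FPKM in null and 0.32 ± 0.17 in controls (SD, n = 4 each). The cofactors through which LIM-homeodomain proteins work were abundant. Of 10 listed, 9 were tested and 0 were called, 6 being above 0 and 3 below it, with a median log2 change of 0.01. Ldb1, the main LIM-domain bridging protein, averaged 105 ± 10.03 FPKM in null and 108 ± 10.1 in controls, and Ssbp3, its single-stranded DNA binding partner, 66.7 ± 2.63 FPKM in null and 66.5 ± 1.82 in controls (SD, n = 4 each).

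Of the paired-type homeobox relatives, 8 of 13 listed were tested and 0 were called, 2 being above 0 and 6 below it, with a median of −0.14. Shox2, a factor of anterior palatal mesenchyme, averaged 51.1 ± 4.33 FPKM in null and 43.6 ± 7.15 in controls. Alx1, a factor of frontonasal mesenchyme, averaged 14.8 ± 1.15 FPKM in null and 17.0 ± 2.43 in controls (SD, n = 4 each).

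Of 10 genes of the signals that act on the members, all were tested and 0 were called, 6 being above 0 and 4 below it, with a median of 0.02. Aldh1a2, a retinoic acid synthesis enzyme, averaged 130 ± 10.8 FPKM in null and 133 ± 26.3 in controls, and the endothelin receptor gene Ednra 25.3 ± 0.99 FPKM in null and 23.9 ± 1.58 in controls (SD, n = 4 each). Bmp4 and Fgf8 were added after their values were seen. Bmp4, a signal of oral ectoderm and palatal mesenchyme, had 14.6, 11.9, 10.5 and 12.3 FPKM in nulls 1, 2, 3 and 4, against 20.6 and 20.6 FPKM in wild types and 16.1 and 14.9 FPKM in heterozygotes. All null values were below all control values. The log2 difference of −0.53 (SE 0.13) missed the threshold against all controls (limma, unadjusted p = 0.00256, adjusted p = 0.191). Against wild type alone it was −0.73 and passed (limma, adjusted p = 0.0374), and against heterozygotes it was −0.33 (adjusted p = 0.644). Fgf8, the inducer of Lhx6 and Lhx8, averaged 3.22 ± 0.63 FPKM in null and 3.64 ± 1.12 in controls, a log2 difference of −0.13 (limma, adjusted p = 0.994).

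Patterning factors of the arch and palate held several calls. Of 25 tested, 2 were called higher (Osr2 and Dlx6) and 4 lower (Pax9, Tfap2b, Msx1 and Tfap2a), and 19 did not pass. Over all tested genes 0.419% were called. The list was chosen with earlier results of these data known, so its count of calls does not measure enrichment. The list median was 0.01. Osr2, a palatal mesenchyme factor, averaged 160 ± 4.47 FPKM in null and 96.0 ± 16.95 in controls, and Dlx6, a factor of the lower jaw, 5.92 ± 0.95 in null and 2.73 ± 0.52 in controls (SD, n = 4 each). Msx1, a factor of anterior palate and tooth mesenchyme, averaged 33.5 ± 7.85 FPKM in null and 78.2 ± 17.3 in controls, and Tfap2b, a neural crest factor, 4.66 ± 0.74 in null and 14.2 ± 1.18 in controls (SD, n = 4 each). The limma adjusted p values were 0.0286 for Osr2, 0.0257 for Dlx6, 0.0277 for Msx1 and 0.000556 for Tfap2b. Pax9 is the gene targeted, so its call here follows from the design. Tfap2a, a neural crest and ectoderm factor, had 4.16, 3.92, 4.08 and 3.69 FPKM in nulls 1, 2, 3 and 4, against 5.67 and 5.67 FPKM in wild types and 5.74 and 5.09 FPKM in heterozygotes. It fell by 0.44 on the log2 scale in null (SE 0.06; limma, adjusted p = 0.0263). Whether the changes of these genes differ from those of the jaw factors above was not tested.

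Of 14 genes linked to the members in mouse mutants, 13 were tested and 0 were called, 8 being above 0 and 5 below it, with a median of 0.03. The cell cycle inhibitor Cdkn1c, which Lhx6 and Lhx8 restrain in the mouse palate, averaged 370 ± 78.7 FPKM in null and 330 ± 50.8 in controls (SD, n = 4 each; limma, adjusted p = 0.967). Postn, a matrix protein of mesenchyme, averaged 159 ± 18.4 FPKM in null and 130.0 ± 9.76 in controls, a log2 difference of 0.29 (limma, adjusted p = 0.406).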

How the data were processed

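Poly(A)-selected RNA of 8 palatal shelf samples was sequenced with the Illumina TruSeq v2 library kit, per the labels' protocols, which does not mark strand. The authors deposited FPKM values for 19083 genes; Novoalign 2.08.03, the build mm10 and DESeq2 (no version) are named in the submitters' processing notes, while the counting program, annotation and filter were not given in the sources used here. There were 0 columns from outside the series.

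The FPKM values of each gene moved in whole steps, which gave whole reads for 100% of genes in the 8 libraries (tolerance 0.03 of a read). Intervals cover the spread between libraries, and recovered reads give depth only. Symbols came from a table of gene identifiers and positions from GENCODE release M21 (GRCm38, which mm10 names), where 18752 identifiers were found. Genes reaching 1 FPKM in 2 libraries or more were tested genome-wide. The test was that of limma 3.58.1, run in R 4.3.3 on the log2(FPKM + 0.5) scale (empirical Bayes with a mean-variance trend, two-sided, Benjamini-Hochberg over all 13600). The procedure was run on simulated data whose changes were larger than those of the members, with no difference by listing set or title number. That check does not show how well changes of the members' size are found. Fold changes on this scale understate low genes. Null was set against all controls in a fit with 2 groups and against each genotype in a fit with 3 groups. Alternatives changed the pseudocount, filter, scaling, tool, blocks and libraries. Summaries used Python 3.11.15 with pandas 2.3.3.

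The members and gene lists were chosen with earlier results of these data known, and the motifs with the promoter sequences in view. The text names the members, the targeted gene, and in each list other than the cell type markers the called genes or, with none, the 2 most abundant. It also names the 3 genes averaging 5 FPKM or more whose profile had the highest correlation with each member. Fgf8, Bmp4, Col2a1, Matn4 and the Isl2 values by library were added after values were seen.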

Additional observations from a re-analysis of the deposited data

How the results depend on the processing

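In the 146 refits of members, all from the same 8 libraries, 0 were called. Over all tested genes, the same settings called between 0 and 176. Lhx6, Lhx8, Gsc, Prrx1 and Prrx2 kept the sign of their change in all of their refits. The fits with a block over all libraries keep the estimate by construction. Pitx1 and Isl1, whose estimates are near 0, did not: Pitx1 ran from −0.21 (without null 1) to 0.29 without single libraries, was −0.07 without heterozygote 2 and −0.13 in the last 4 listed libraries. Isl1 ran from −0.21 to 0.23 without single libraries, and was 0.44 for title number 56, 0.054 in the first 4 listed libraries, 0.019 with voom and 0.031 without the 2 libraries highest in neuron markers. The last 2 alternatives were chosen after seeing the data. Isl1 has no value with a mean FPKM of at least 5.

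The count of changed genes, null against control, was 57. It was 35 at a mean FPKM of at least 5, 176 with the first or last 4 listed as a block, 0 and 9 within title numbers 44 and 56, 2 and 3 within the first and last listed set, and 25 without the libraries highest in neuron markers. Without single libraries it ran from 16 to 52: leaving out wild type 1 gave 16, null 2 gave 18, null 1 gave 22, wild type 2 and heterozygote 1 each 28, and null 3 gave 29. With the title number as a replicate block it was 47, and no member was called. Against wild type the 52 calls became 31 at a mean FPKM of at least 5 and 4 to 53 without single libraries: 4 and 16 without wild type 1 and 2, 23 without null 3, 27 without either heterozygote, 31 without null 2. Against heterozygote the 11 calls became 0 to 14: 0 without either heterozygote, 6 without null 2 or null 3. Heterozygote against wild type gave 0 to 1, with 1 without null 1. A lone library left in a genotype is assumed to vary like the others. The causes were not tested, beyond fewer genes or samples. The planned count tests with edgeR and DESeq2 were not run, since the deposited values are FPKM. In the null and control groups of 4, no library of any member stood apart by Dixon's test. With 4 values the gap must exceed 0.829 of the range, and the controls hold 2 genotypes. The test therefore does not show that no library was extreme.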
